A study of Triticum aestivum with 18 samples.

Results

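Control seeds of 2 wheat (Triticum aestivum) varieties, BN607 (Bainong607) and BN207 (Bainong207), were compared by poly(A) RNA sequencing. The comparison took the control libraries only, 3 of C72_BN607 and 3 of C72_BN207, which are 6 of the 18 libraries of the series. By the labels, both groups were seeds at the germination stage that had taken up water for 24 h, were not waterlogged, and were sampled after 72 h of germination at 25 °C and 75% relative humidity, in a cycle of 16 h light and 8 h dark. The methods of the study add that the radicle and the coleoptile were removed before RNA extraction, and describe BN607 as the tolerant and BN207 as the medium variety under waterlogging. C72_ZM22 (Zhoumai 22) libraries were no side of the comparison, but entered the filter on low levels and the estimate of the spread. Those methods describe a control without waterlogging and name no 24 h of water uptake. Waterlogged libraries (W72), used below as separate samples, were by the labels from seeds soaked for 72 h, against 24 h in control seeds. The same germination conditions followed. Each group had 3 libraries, which the study calls biological replicates from replicate treatments of each variety. The question was which genes the 2 varieties express at different levels before any waterlogging.

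Bread wheat is a hexaploid, and most of its genes exist as homoeologous copies on the A, B and D subgenomes. A variety can therefore carry, lack or silence 1 copy while the others are still expressed, and near-identical copies can share reads. In the germinating grain, the aleurone secretes alpha-amylases and proteases into the starchy endosperm, while embryo tissue resumes cell division. All loci are placed on the Chinese Spring assembly IWGSC RefSeq v1.0, which is neither of the 2 varieties.

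The 6 libraries summed to between 95.7 and 108 M estimated counts, and C72_BN207 replicate 1 stood apart from the other 5. Its correlation with them, in log2(FPKM + 1), was 0.694 to 0.773, against 0.874 to 0.946 among the other 5 libraries. FPKM is a fragment level corrected for transcript length and library size. Markers of dividing cells were low in that library. The median log2(FPKM + 1) of 235 tested histone loci was 1.66 there, 5.01 and 5.69 in the other C72_BN207 libraries and 4.23 to 5.41 in C72_BN607. That of 180 cell cycle and replication genes was 0.65 there and 1.62 to 2.62 in the other 5 libraries. Storage globulins summed to 2717 FPKM there, against 386 and 179 FPKM in the other C72_BN207 libraries and 358 to 915 FPKM in C72_BN607. Photosystem and Rubisco loci, markers of green coleoptile and leaf tissue, summed to between 16.1 and 111 FPKM in the 6 libraries, and alpha-amylases, which mark the aleurone, to between 4484 and 42102 FPKM. The part of these markers in the differences below was not tested. In bulk seed RNA, fewer cells of a type and less RNA per cell cannot be told apart.

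**Figure D1:**
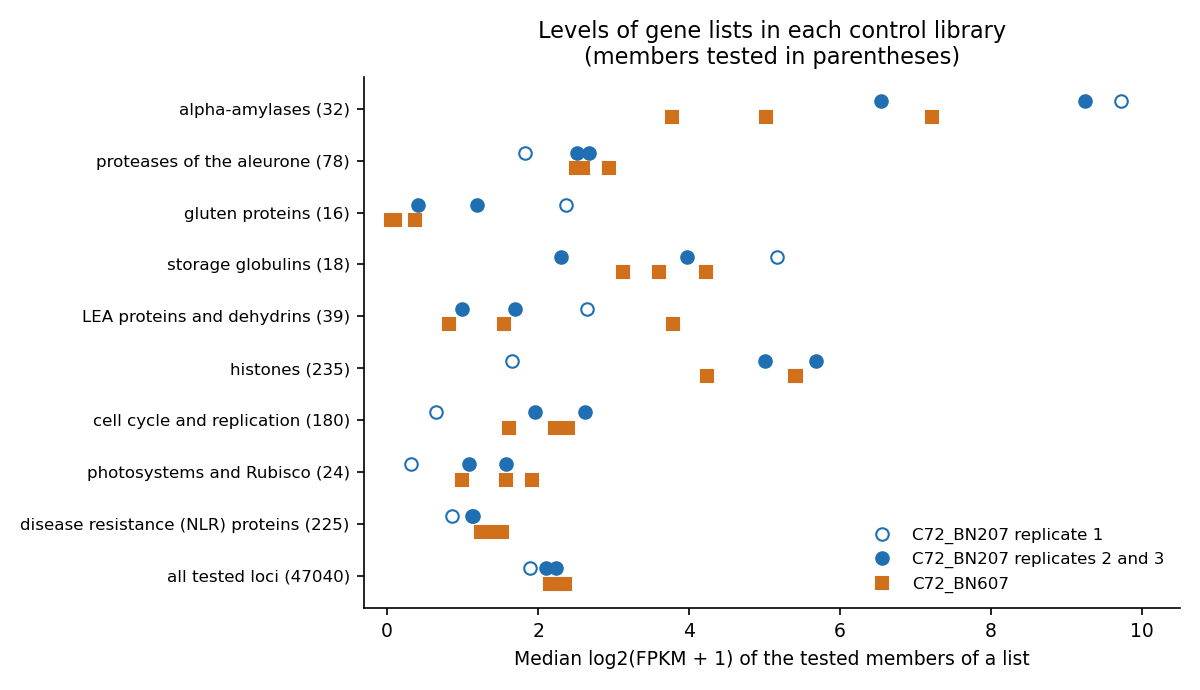
Median log2(FPKM + 1) of the tested members of 9 gene lists and of all tested loci in each of the 6 control libraries (circles, C72_BN207, with replicate 1 open; squares, C72_BN607). The open circle lies at the low end for histones (1.66) and cell cycle genes (0.65) and at the high end for alpha-amylases (9.73), gluten proteins (2.36) and storage globulins (5.16).

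Of 94141 loci in the table, 47040 had at least 1 FPKM in at least 3 of the 9 control libraries and were tested with edgeR's quasi-likelihood test on the estimated counts. An unadjusted p under 0.05 was found at 7.48% of the tested loci, at 2.95% with BN607 higher and at 4.52% with BN207 higher. At a Benjamini-Hochberg adjusted p under 0.05, 947 loci were called, which is 2.01% of those tested. BN607 was higher at 428 loci (0.91%) and BN207 at 519 (1.1%). The differences were large. The median absolute log2 fold change was 7.32 where BN607 was higher and 5.14 where BN207 was higher, or 5.88 and 5.04 when loci without a count in the lower variety were set to a floor of 3 counts per library. The smallest called log2 differences were 1.09 and 0.98. Levels were moderate, with medians of 5.22 and 5.36 FPKM in the higher variety, and 50 and 57 loci were above 20 FPKM in it.

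The FPKM ranges of the groups did not overlap at any of the 947 called loci. Over all tested loci, non-overlapping ranges were found at 17.8% with BN607 higher and at 3.74% with BN207 higher. FPKM of all tested loci was shifted toward BN607, by a median of 0.19 in limma on log2(FPKM + 1), whereas the median in the scaled count fit was -0.07. The split of the calls differed between the fits. BN607 was higher at 45.2% of the edgeR calls and at 60.6% of the limma calls on FPKM (760 of 1255 loci, with 2.67% of all tested loci called). An edgeR fit of the 6 libraries alone gave 450 loci higher in BN607 and 443 higher in BN207, so which side held more calls was not stable. DESeq2 called 2044 loci (4.41% of those it tested), and among them were 427 of the 428 and 516 of the 519 edgeR calls.

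The number of calls changed when 1 replicate was left out. It was 843 without C72_BN207 replicate 1, 519 without C72_BN207 replicate 2, 641 without C72_BN207 replicate 3, and 433, 437 and 456 without C72_BN607 replicates 1, 2 and 3. Every one of the 947 loci kept its sign in all 6 of these fits, 358 were called in all 6, and 141 in none of the 6. Of the 64 called loci named by the rule for this text, 13, 29 and 23 lost their call without C72_BN207 replicates 1, 2 and 3, and 32, 32 and 31 without C72_BN607 replicates 1, 2 and 3. The fit of all 18 libraries called 3 loci, with 2839 at an unadjusted p under 0.05, and the same fit without W72_BN207 replicate 1, a library described with the waterlogged seeds, called 1077.

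**Figure D2:**
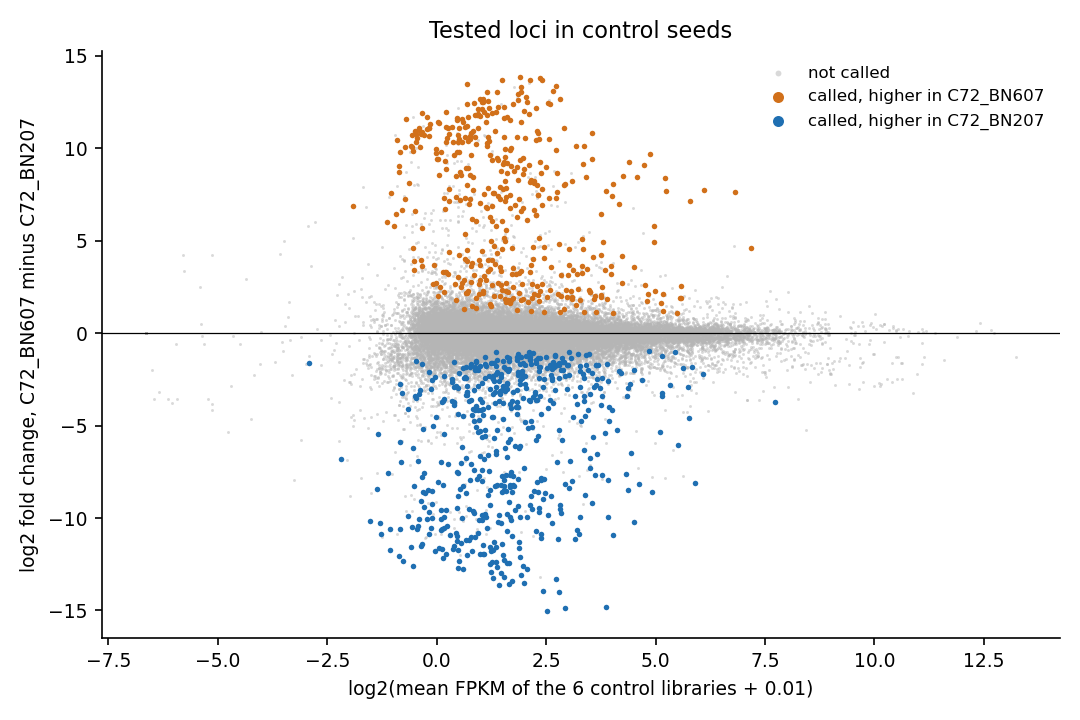
Log2 fold change (C72_BN607 minus C72_BN207) of the 47040 tested loci against the log2 of their mean FPKM plus 0.01 over the 6 control libraries. The 428 called loci higher in BN607 (orange) and the 519 higher in BN207 (blue) lie at log2 differences of 0.98 or more in size, most of them at moderate levels.

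The 12 called and described loci with the highest levels on the BN607 side had different roles, and 2 of them are enzymes of sugar metabolism. Chloroplast fructose-bisphosphate aldolase, which cleaves or joins the hexose bisphosphate of glycolysis and carbon fixation (TraesCS3B02G025200, 3B, 10930856 to 10957184), was at 0.96, 2.22 and 1.95 FPKM in C72_BN207 and 41.2, 29.4 and 37.1 FPKM in C72_BN607. That is a log2 fold change of 4.16 ± 0.34 SE, adjusted p = 0.00108. Its C72_ZM22 libraries were as high as BN607, at 39.6 to 46.1 FPKM, so that BN207 was the variety that stood apart. 6-phosphogluconate dehydrogenase of the oxidative pentose phosphate pathway (TraesCS7A02G012000, 7A, 5194605 to 5202201) was at 0.23, 0.15 and 0.38 FPKM in C72_BN207 and 31.4, 32.7 and 16.01 FPKM in C72_BN607 (6.42 ± 0.85 SE, adjusted p = 0.00808). Here C72_ZM22 was at 0.55 FPKM or below, and BN607 alone was high. Both loci were called in each of the 6 fits that left out a replicate.

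The locus with the highest level of the 12 was nucleoredoxin, a thioredoxin-fold oxidoreductase (TraesCS2B02G489600, 2B, 686834230 to 686838629), at 8.22, 14.1 and 13.6 FPKM in C72_BN207 and 77.9, 89.4 and 83.5 FPKM in C72_BN607 (2.54 ± 0.29 SE, adjusted p = 0.00419). The 16 kDa proteolipid subunit of the V-type proton ATPase, part of the membrane ring of the vacuolar proton pump (TraesCS1B02G022800, 1B, 10111346 to 10114127), was at 10.9, 12.01 and 9.98 FPKM in C72_BN207 and 49.5, 41.2 and 43.1 FPKM in C72_BN607 (1.73 ± 0.23 SE, adjusted p = 0.00894). A plasma membrane intrinsic protein, a member of the aquaporin water channels (TraesCS2B02G225900, 2B, 216708363 to 216711221), was at 2.84, 5.604 and 4.02 FPKM in C72_BN207 and 30.5, 34.9 and 34.4 FPKM in C72_BN607 (2.74 ± 0.32 SE, adjusted p = 0.00524). These 3 loci, and a putative serine incorporator (TraesCS6B02G386500, 6B, 661340337 to 661343700) at 8.06, 10.3 and 8.56 FPKM in C72_BN207 and 50.4, 46.3 and 47.7 FPKM in C72_BN607, were called in all 6 fits that left out a replicate. Reticulon-like protein B1, of a family that shapes the tubules of the endoplasmic reticulum (TraesCS1B02G360800, 1B, 589133588 to 589135691), was at 16.1, 20.2 and 19.96 FPKM in C72_BN207 and 51.1, 50.1 and 57.5 FPKM in C72_BN607 (1.22 ± 0.20 SE, adjusted p = 0.0204), and was called in 1 of those 6 fits.

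Cyclic phosphodiesterase (TraesCS1B02G351000, 1B, 581412112 to 581413204) was at 0, 0.037 and 0.041 FPKM in C72_BN207 and 31.1, 18.5 and 20.7 FPKM in C72_BN607, with 8 estimated counts in all in BN207. A protein described as SRG1, a name taken from a senescence-related gene of Arabidopsis (TraesCS7B02G338900, 7B, 593184966 to 593188173), was at 1.19, 1.21 and 0.94 FPKM in C72_BN207 and 25.1, 32.5 and 19.97 FPKM in C72_BN607 (4.21 ± 0.44 SE, adjusted p = 0.00296). A second locus with the SRG1 description, on chromosome 4B (TraesCS4B02G374300, 4B, 658172330 to 658174072), went the other way, at 25.5, 46.3 and 35.03 FPKM in C72_BN207 and 5.43, 4.74 and 6.23 FPKM in C72_BN607 (-2.96 ± 0.34 SE, adjusted p = 0.00479). Both SRG1 loci were called in all 6 fits that left out a replicate. Further loci higher in BN607 were a factor described as of the ElF1 superfamily (TraesCS1B02G446800, 1.88 ± 0.24 SE, adjusted p = 0.00677) and a biostress-resistance-related protein (TraesCS3B02G147000, 3.21 ± 0.24 SE, adjusted p = 0.000829). For the latter, the BN207 values lay between 2.47 and 2.69 FPKM and the BN607 values between 27.6 and 32.3 FPKM.

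**Figure D3:**
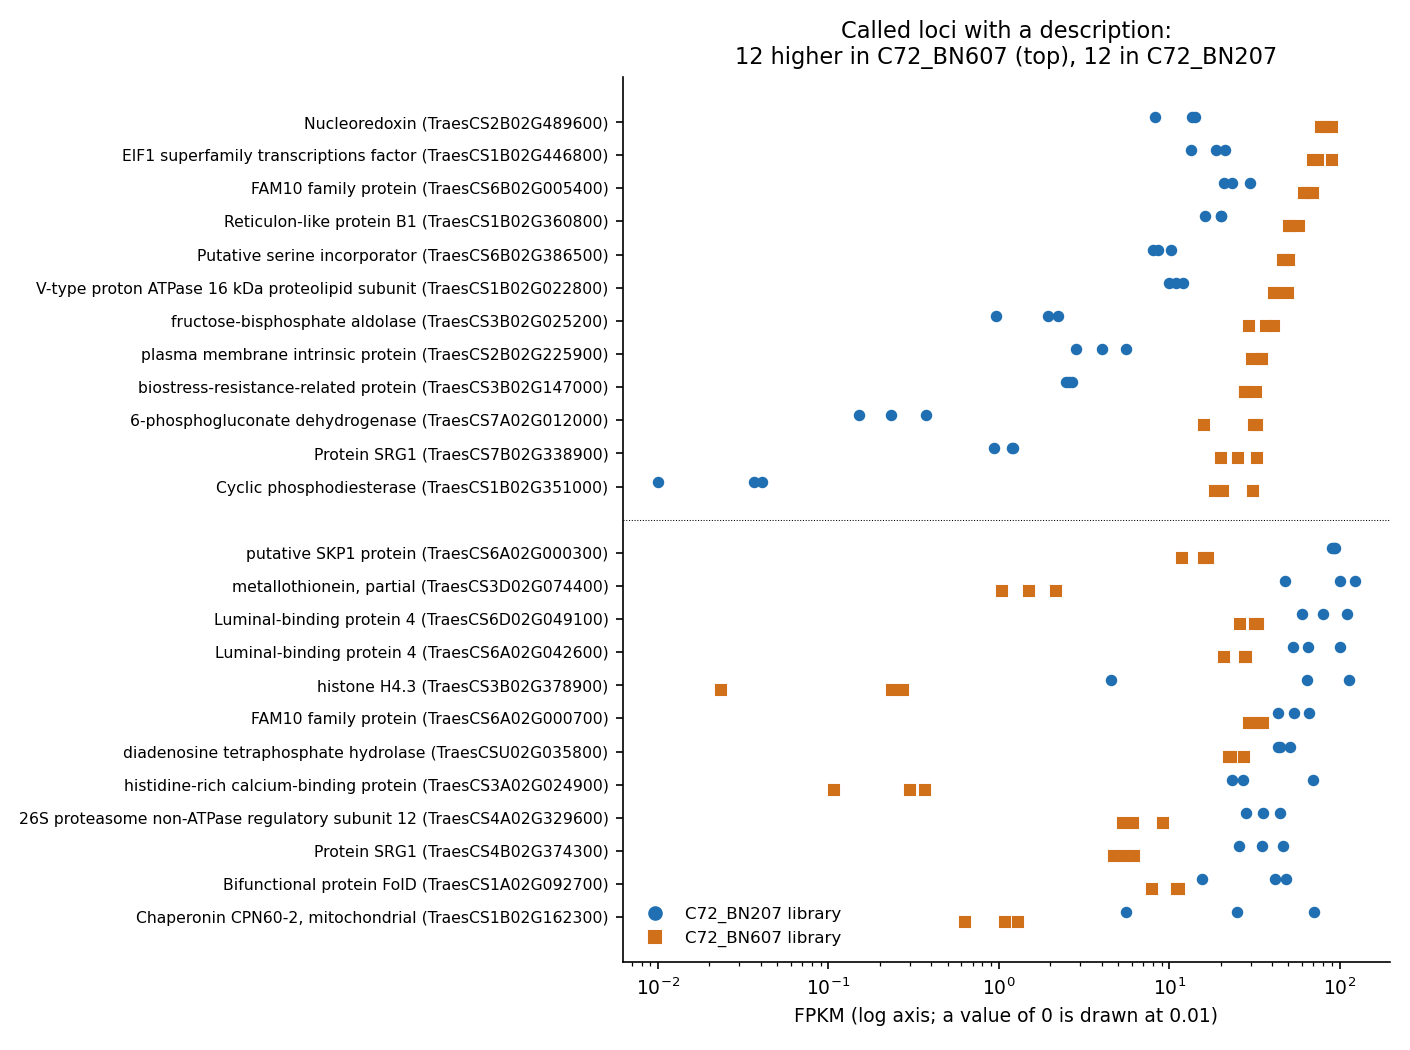
FPKM (log axis) of the 24 called loci with a protein description that had the highest mean level in the higher variety, 12 in each direction, in each C72_BN207 library (circles) and each C72_BN607 library (squares). In every row the circles and squares do not overlap, which was part of the rule that chose these loci; values of 0 are drawn at 0.01.

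The 12 loci chosen in the same way on the BN207 side also had different roles. A putative SKP1 protein, the adaptor that joins F-box proteins to the cullin of a ubiquitin ligase (TraesCS6A02G000300, 6A, 286171 to 288047), was at 92.9, 90.2 and 94.00 FPKM in C72_BN207 and 16.03, 11.9 and 16.8 FPKM in C72_BN607 (-2.92 ± 0.27 SE, adjusted p = 0.00186). Its values varied little within either group, and C72_ZM22 was at 86.8 to 109 FPKM. A metallothionein, a small cysteine-rich protein that binds metals (TraesCS3D02G074400, 3D, 35661945 to 35662968), was at 47.5, 123 and 100.04 FPKM in C72_BN207 and 2.17, 1.05 and 1.502 FPKM in C72_BN607 (-6.04 ± 0.60 SE, adjusted p = 0.00245). Subunit 12 of the non-ATPase part of the 26S proteasome (TraesCS4A02G329600, 4A, 614867291 to 614871634) was at 44.3, 28.2 and 35.5 FPKM in C72_BN207 and 6.11, 9.14 and 5.37 FPKM in C72_BN607 (-2.73 ± 0.38 SE, adjusted p = 0.0107), and was called in 4 of the 6 fits that left out a replicate. A hydrolase of diadenosine tetraphosphate on unplaced sequence (TraesCSU02G035800, -1.22 ± 0.23 SE, adjusted p = 0.0365) was at 44.4, 51.2 and 43.4 FPKM in C72_BN207 and 27.5, 22.9 and 22.3 FPKM in C72_BN607, and was called in 1 of them. A histidine-rich calcium-binding protein (TraesCS3A02G024900, 3A, 13353901 to 13356506) was at 69.7, 23.2 and 27.02 FPKM in C72_BN207 and 0.37, 0.11 and 0.30 FPKM in C72_BN607 (-7.60 ± 0.92 SE, adjusted p = 0.00572).

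A pair of loci for enzymes of methionine metabolism was also higher in BN207. Cystathionine gamma-synthase, which commits homoserine phosphate and cysteine to methionine synthesis (TraesCS4B02G157700, 4B, 299704745 to 299709585), was at 17.1, 32.8 and 40.8 FPKM in C72_BN207 and 1.95, 2.01 and 2.06 FPKM in C72_BN607 (-4.15 ± 0.29 SE, adjusted p = 0.000697). S-adenosylmethionine synthase 4, which turns methionine into the methyl donor of the cell (TraesCS6B02G197300, 6B, 234557883 to 234560582), was at 35.2, 20.6 and 25.3 FPKM in C72_BN207 and 0.30, 0.096 and 0.073 FPKM in C72_BN607 (-7.68 ± 0.78 SE, adjusted p = 0.00273). Both were called in all 6 fits that left out a replicate. They came into the text through the list of pathogenesis-related proteins, whose search word thionin also matches methionine and cystathionine. Of the 47 members that matched in this way, these 2 were the only ones called by edgeR, where 2.01% of all tested loci were called, so the pair is not a result about methionine metabolism as a whole. The bifunctional folate enzyme FolD (TraesCS1A02G092700) was at 15.4, 48.5 and 41.9 FPKM in C72_BN207 and 11.4, 7.95 and 11.1 FPKM in C72_BN607 (-2.003 ± 0.37 SE, adjusted p = 0.0368), but was called in 1 of the 6 fits only.

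A histone and a chaperonin locus on the BN207 side had their lowest BN207 value in replicate 1, the library that stood apart. Histone H4.3 (TraesCS3B02G378900, 3B, 596965452 to 596966122) was at 4.55, 64.5 and 113 FPKM in C72_BN207 and 0.023, 0.27 and 0.24 FPKM in C72_BN607 (-8.57 ± 1.43 SE, adjusted p = 0.0231), and was listed at 0 to 0.05 FPKM in C72_ZM22. The 3 BN207 values span a wide range, in the order of the histone list as a whole, whose median was 1.66, 5.01 and 5.69 in the same libraries. The mitochondrial chaperonin CPN60-2 (TraesCS1B02G162300, 1B, 280161877 to 280167619) was at 5.54, 24.8 and 70.5 FPKM in C72_BN207 and 0.63, 1.09 and 1.295 FPKM in C72_BN607 (-5.24 ± 0.83 SE, adjusted p = 0.0187). The H4.3 locus was called in 1 and the CPN60-2 locus in 2 of the 6 fits that left out a replicate. Histone H1 WH1B.1 (TraesCS5B02G448400, 6.12 ± 1.12 SE, adjusted p = 0.0343) and a histone H2B.2-like locus of unplaced sequence (TraesCSU02G169300;TraesCSU02G169400, 8.78 ± 1.30 SE, adjusted p = 0.0298) were higher in BN607, and were called in none and in 1 of those fits. In the waterlogged libraries without W72_BN207 replicate 1, described below, edgeR called H4.3 (-9.29, adjusted p = 0.0467) and CPN60-2 (-3.99, adjusted p = 0.0385) again. The H1 and H2B.2-like loci were not called there (adjusted p = 0.152 and 0.161). In the histone list as a whole, 3 of 235 loci were called in control seeds (1.28%), against 2.01% of all tested loci. Its median log2 fold change was 0.14 with all libraries, and moved both ways when 1 library was left out. It was -0.34, 0.22 and 0.84 without C72_BN207 replicates 1, 2 and 3, and 0.43, 0.03 and -0.11 without C72_BN607 replicates 1, 2 and 3.

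Luminal-binding protein 4 (BiP), the Hsp70 of the endoplasmic reticulum lumen, was lower in BN607 at its 6A and 6D copies. The 6D copy (TraesCS6D02G049100, 6D, 23832531 to 23836586) was at 109.9, 79.5 and 60.04 FPKM in C72_BN207 and 25.99, 33.1 and 31.8 FPKM in C72_BN607 (-1.81 ± 0.35 SE, adjusted p = 0.045). The 6A copy (TraesCS6A02G042600, 6A, 22442502 to 22457109) was at 99.96, 65.00 and 52.9 FPKM in C72_BN207 and 20.9, 28.3 and 27.8 FPKM in C72_BN607 (-1.87 ± 0.37 SE, adjusted p = 0.0453). The 6B copy (TraesCS6B02G058300) had a log2 fold change of -1.15 ± 0.37 (SE) and an adjusted p of 0.329. Summed over the 3 copies, the level was 292.9, 198 and 155 FPKM in C72_BN207 and 73.9, 102 and 96.1 FPKM in C72_BN607, without overlap. The 6A and 6D copies were each called in 2 of the 6 fits that left out a replicate.

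FAM10 family proteins, cochaperones of the cytosolic Hsp70, showed opposite differences at homoeologous copies. The 6B copy (TraesCS6B02G005400, 6B, 4124091 to 4128342) was higher in BN607, at 23.4, 20.8 and 29.7 FPKM in C72_BN207 and 61.9, 69.2 and 64.6 FPKM in C72_BN607 (1.11 ± 0.21 SE, adjusted p = 0.0415). The 6A copy (TraesCS6A02G000700, 6A, 616745 to 621093) was lower in BN607, at 43.3, 54.04 and 66.03 FPKM in C72_BN207 and 29.4, 32.8 and 35.2 FPKM in C72_BN607 (-1.02 ± 0.19 SE, adjusted p = 0.0356). The 6D copy (TraesCS6D02G004800) had a log2 fold change of -0.13 ± 0.20 (SE) and an adjusted p of 0.99. The sum of the 5 tested loci with this description, 1 of them on 5D and 1 a second 6B locus, was 139.9, 145 and 180 FPKM in C72_BN207 and 170, 188 and 181 FPKM in C72_BN607, so that the groups overlapped on the sum. Homoeologous copies can share reads, and the split between them is uncertain. The 6B copy was called in 1 and the 6A copy in none of the 6 fits that left out a replicate.

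Other groups of loci with 1 description and 2 or more called members on homoeologous chromosomes were found with the same and with opposite directions. The called copies of a putative NADP-dependent oxidoreductase P1, on chromosomes 2A, 2B and 2D, were all higher in BN207, with means of 32.6, 3.49 and 3.97 FPKM against 0.02, 0 and 0 FPKM in BN607. Aspartyl aminopeptidase was at means of 1.26 and 14.8 FPKM on 5A and 15.1 and 0.06 FPKM on 5B, in BN207 and BN607 in that order, so that the copy with the higher level differed between the varieties. An alpha-1,3-mannosyl-glycoprotein N-acetylglucosaminyltransferase, of N-glycan processing, was at 9.37 and 0.21 FPKM on 6A and at 1.12 and 6.24 FPKM on 6D. A Paf1 domain protein was at 3.42 and 0.16 FPKM on 3A and at 1.06 and 3.61 FPKM on 3B. Amidase 1 was higher in BN207 on 2A and on 2B. Of the 7 such groups, 3 had the same direction at all called copies and 4 had opposite directions.

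Disease resistance proteins held the most calls of the gene lists. These intracellular receptors (NLR proteins) carry a nucleotide-binding site and leucine-rich repeats and recognise pathogen effectors, and their number varies between wheat varieties. Of 1847 members in the table, 225 passed the filter on low levels, and 18 of these were called (8%), 13 higher in BN607 and 5 higher in BN207, against 2.01% of all tested loci. A member expressed in only 1 variety passed the filter through that variety's 3 libraries and so had to differ, which can raise this share. Ranges did not overlap with BN607 higher at 35.6% of members, against 17.8% of all tested loci, and with BN207 higher at 3.56%, against 3.74%. Over the gene lists, the share with BN607 higher ran from 0% in gluten proteins to 36.5% in glutathione S-transferases. It was 25.7% in receptor-like kinases, so a raised share was not particular to resistance proteins. The median log2 fold change of the resistance list was 0.17, against 0.21 in receptor-like kinases and -0.07 over all tested loci. Of the called members, 17 were described as RGA, RPP13, RPM1, RPP8 or RPS2 like. The other was a barley stem rust resistance protein (TraesCS7D02G012400, 7D, 5330809 to 5337313), a description that does not name this receptor class. It was at 0.081, 0.46 and 0.17 FPKM in C72_BN207 and 11.3, 9.81 and 8.36 FPKM in C72_BN607 (5.13 ± 0.74 SE, adjusted p = 0.0123), and was called in 4 of the 6 fits that left out a replicate.

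The called resistance loci were under 0.5 FPKM in every library of the lower variety. The 13 higher in BN607 lay between 0.93 and 11.3 FPKM in its libraries and at 0.46 FPKM or below in every BN207 library, and 7 of them had no count in BN207. The 5 higher in BN207 lay between 1.01 and 3.50 FPKM there and at 0.47 FPKM or below in BN607, where 3 had no count. An RPP13-like protein 3 locus near the end of 1B (TraesCS1B02G000300, 1B, 711793 to 713476) was at 0, 0 and 0 FPKM in C72_BN207 and 2.55, 5.78 and 4.77 FPKM in C72_BN607, 105-fold higher in BN607 with BN207 set to a floor of 3 counts per library. The counts derive from coverage, so this floor need not stand for 3 fragments, and such folds are no lower bounds. An RPM1 locus (TraesCS7A02G046400, 7A, 20982479 to 20983950) was at 0, 0 and 0 FPKM in C72_BN207 and 2.06, 4.22 and 3.56 FPKM in C72_BN607, 128-fold higher in BN607 against the same floor. The nearby TraesCS7A02G046200, also described as RPM1, was at 0, 0 and 0 FPKM in C72_BN207 and 2.15, 3.61 and 3.29 FPKM in C72_BN607. Both RPM1 loci may share reads.

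On the BN207 side, an RGA2 locus (TraesCS1B02G469500, 1B, 678310982 to 678319110) was at 1.402, 1.31 and 1.35 FPKM in C72_BN207 and 0, 0 and 0 FPKM in C72_BN607, 297-fold higher in BN207 against the floor used above (adjusted p = 0.000493). An RGA4 locus (TraesCS1A02G009300, 1A, 5501535 to 5507742) was at 1.11, 1.37 and 1.597 FPKM in C72_BN207 and 0.29, 0.40 and 0.47 FPKM in C72_BN607 (-2.10 ± 0.25 SE, adjusted p = 0.00568). These RGA2 and RGA4 loci were called in all 6 fits that left out a replicate, whereas TraesCS1B02G000300 and TraesCS7A02G046400 were called in 3 of the 6. C72_ZM22 was under 0.5 FPKM in all 3 libraries at 8 of the 13 loci higher in BN607 and at 2 of the 5 higher in BN207, so that these loci passed the filter only through the 3 libraries of the higher variety. Of the 18 loci, 9 lie on the B, 6 on the A and 2 on the D subgenome, and 1 is unplaced. Without the libraries C72_BN607 replicate 1, 2 or 3 in turn, 10 of the list were called each time.

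Receptor-like kinases, the receptors of the cell surface, were called at 6 of 409 tested members (1.47%), 3 in each direction, against 2.01% of all tested loci. Wall-associated receptor kinase 2 (TraesCS3D02G003900, 3D, 1655945 to 1659437) was at 0, 0 and 0.015 FPKM in C72_BN207 and 8.001, 11.01 and 11.1 FPKM in C72_BN607 (10.48 ± 1.34 SE, adjusted p = 0.00723). A cysteine-rich receptor-like kinase 16 locus (TraesCS2B02G027000) was at 0.014, 0 and 0 FPKM in C72_BN207 and 2.19, 3.75 and 2.73 FPKM in C72_BN607, and a kinase described as RKF3 (TraesCS1B02G275000) at 0.22, 0.42 and 0.76 FPKM in C72_BN207 and 12.2, 4.903 and 9.201 FPKM in C72_BN607. An L-type lectin-domain kinase S.7 locus (TraesCS1A02G030900) was higher in BN207, at 3.403, 3.52 and 3.898 FPKM in C72_BN207 and 0.62, 0.35 and 0.12 FPKM in C72_BN607 (-3.56 ± 0.57 SE, adjusted p = 0.0194). Of these 4 kinases, the first and the second were called in all 6 fits that left out a replicate, RKF3 in 5 and the lectin-domain kinase in 3. The other called kinases, an LRR receptor-like kinase (TraesCS3A02G446000) and GSO1 (TraesCS2B02G071100), were higher in BN207 at 1.64 FPKM or less. The LRR kinase was called in 3 of those 6 fits. GSO1, at only 0.79, 0.23 and 0.22 FPKM in C72_BN207, was called in none of them.

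No alpha-amylase locus was called, although the summed alpha-amylase level was higher in each C72_BN207 library than in any C72_BN607 library. Alpha-amylase hydrolyses the starch of the endosperm. The summed FPKM of the 32 tested loci was 42102, 30954 and 14172 in C72_BN207 and 4484, 9719 and 6241 in C72_BN607, or 2.15% to 7.07% against 0.70% to 1.54% of all FPKM. The median log2 fold change of the list was -2.24, and -1.71 without C72_BN207 replicate 1. With all libraries, 25 of 32 loci were below 0, against 26646 of the 47040 tested loci. No member was called by edgeR, with 16 at an unadjusted p under 0.05, all higher in BN207, 15 called by DESeq2 and 0 by limma. Ranges did not overlap with BN207 higher at 50% of the members, against 3.74% of all tested loci, and with BN607 higher at 12.5%, against 17.8%. The most abundant locus (TraesCS6D02G298500) was at 4472, 3137 and 1745 FPKM in C72_BN207 and 615, 1459.8 and 544 FPKM in C72_BN607 (-2.23 ± 0.76 SE, adjusted p = 0.393). In the waterlogged libraries the summed level was 37510 and 39332 FPKM in W72_BN207 replicates 2 and 3 and 26214, 1645 and 6905 FPKM in W72_BN607. It was 10734 FPKM in the library labelled W72_BN207 replicate 1. The groups overlapped with that library included, and did not overlap without it.

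Other lists of seed proteins held between 0 and 2 calls, where 2.01% of all tested loci were called. Gluten proteins, the endosperm reserve, had 16 tested loci at low levels and a median log2 difference of -3.82, with summed FPKM of 144, 15.6 and 49.1 in C72_BN207 and 15.3, 8.28 and 3.65 in C72_BN607. The highest of these values was in C72_BN207 replicate 1, the median without that library was -2.57, and no gluten locus was called by edgeR, DESeq2 or limma, with 2 at an unadjusted p under 0.05. Of 68 seed inhibitors and puroindolines, a subtilisin-chymotrypsin inhibitor-2A locus (TraesCS2D02G165500) was called higher in BN607, at 0.20, 0.18 and 0.18 FPKM in C72_BN207 and 6.15, 3.39 and 1.53 FPKM in C72_BN607, in 1 of the 6 fits that left out a replicate. Of 28 genes of oil bodies and the glyoxylate cycle, 3-ketoacyl-CoA thiolase 2 (TraesCS1B02G161300), the last enzyme of a round of beta-oxidation, was called higher in BN607, at 1.52, 4.51 and 4.48 FPKM in C72_BN207 and 20.2, 18.1 and 18.6 FPKM in C72_BN607, but in none of the 6 fits. Of 78 proteases of the aleurone, serine carboxypeptidase-like 34 (TraesCS7B02G416000) was called higher in BN607 and a cysteine proteinase (TraesCS2A02G584900) higher in BN207. The cysteine proteinase was at 4.74, 6.14 and 6.46 FPKM in C72_BN207 and 1.24, 1.82 and 1.29 FPKM in C72_BN607 (-2.28 ± 0.22 SE, adjusted p = 0.00199) and was called in all 6 fits, the carboxypeptidase in none.

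Lists of housekeeping and stress genes held 1 or 2 calls each, which is 0.36% to 2.30% of their tested members, against 2.01% of all tested loci. Of 87 glycolytic enzymes, the aldolase above and a locus whose second description is chloroplast glucose-6-phosphate isomerase (TraesCS5A02G247100;TraesCS5A02G247200, higher in BN207, -1.72 ± 0.30 SE, adjusted p = 0.0291) were called. Of 276 cytosolic ribosomal proteins, 60S ribosomal protein L10a-2 (TraesCS4B02G007100) was called higher in BN207 (-1.16 ± 0.18 SE, adjusted p = 0.0188). Of 180 cell cycle and replication genes, a cyclin-A1-4-like locus (TraesCS1B02G151800) was called higher in BN207, at 2.23, 7.51 and 6.897 FPKM in C72_BN207 and 0.061, 0 and 0.017 FPKM in C72_BN607. Of 107 heat shock proteins, small heat shock protein Hsp23.6 (TraesCS7B02G083200) and a DnaJ chaperone (TraesCS1B02G024600) were called higher in BN607. They were at 3.79 and 3.10 FPKM or less, and in 1 and in none of the 6 fits that left out a replicate. The luminal-binding protein 4 loci and the CPN60-2 locus described above, called higher in BN207, are chaperones too. They are not in this list, which was matched on other words of the description. The cyclin was called in 4 of those fits, L10a-2 in 2 and the isomerase locus in 1. The single calls in 3 further lists were all higher in BN607. They were a glutathione S-transferase (TraesCS3B02G025000) of 63, at 0, 0 and 0 FPKM in C72_BN207 and 1.06, 1.52 and 0.99 FPKM in C72_BN607, the F-box/kelch-repeat protein SKIP30 (TraesCS6B02G243200) of 112, at 0.011, 0.0099 and 0.010 FPKM in C72_BN207 and 2.28, 2.46 and 1.94 FPKM in C72_BN607, and an HGA-like glycosyltransferase (TraesCS3B02G022000) of 155 in the list of UDP-glycosyltransferases. The transferase and SKIP30 were called in all 6 fits, the glycosyltransferase in none. In the list of pathogenesis-related proteins, 47 of 197 members matched through methionine or cystathionine, both calls were among these 47, and edgeR called none of the other members. In the whole list DESeq2 called 1 locus higher in BN607 and 3 higher in BN207, and limma 1 and 2.

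In all, 14 of the 36 lists held 42 calls and 22 lists held none, where edgeR called 2.01% of all tested loci. Those 22 comprised the alpha-amylases and gluten proteins above, other starch breakdown and starch synthesis enzymes, storage globulins, LEA proteins and dehydrins, cell wall loosening proteins, sucrose enzymes and sugar transporters, aquaporins, lipid transfer proteins, cytochrome P450s, secretory peroxidases, phenylpropanoid enzymes, lectins and dirigent proteins, photosystems and Rubisco, fermentation and oxygen sensing genes, hormone genes (abscisic acid, gibberellin and ethylene), the WRKY, MYB, NAC and ERF transcription factors, and transposon-related loci. Together they had 1201 tested members. With edgeR, 27 of these had an unadjusted p under 0.05 with BN607 higher and 53 with BN207 higher, where the shares over all tested loci were 2.95% and 4.52%. DESeq2 called 41 and limma 5, where 4.41% and 2.67% of all tested loci were called. The lists were pooled because edgeR called none of their members, a choice that by itself lowers such counts against all tested loci. Of the 53 loci, 16 were the alpha-amylases described above. The plasma membrane intrinsic protein named above is not in the aquaporin list, which was matched on other words of the description. The 44 gene identifiers that the study names in its text matched 42 loci, of which 37 were tested. None was called by edgeR, DESeq2 or limma, where 2.01%, 4.41% and 2.67% of all tested loci were called, and 3 had an unadjusted p under 0.05 in edgeR, against 7.48% of all tested loci. With so few loci, counts of this size are near the background. Their median log2 fold change was -0.21, from -2.84 to 1.38. These genes were chosen by the study on the same samples, for the response to waterlogging.

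Many of the called loci were on in one variety and off in the other. Among the called loci, at least 1 FPKM in all 3 libraries of one variety and under 0.5 FPKM in all 3 of the other was seen at 285 loci on in BN607 and at 268 loci on in BN207. The share with this pattern over all tested loci was not counted. No count at all was listed in the lower variety at 130 and 104 of the called loci. C72_ZM22 divided these loci differently. Of the 285 loci on in BN607, 87 were on and 164 off in all 3 C72_ZM22 libraries, whereas of the 268 loci on in BN207, 156 were on and 90 off. The 164 and 90 loci passed the filter on low levels only through the 3 libraries of the higher variety, and so had to differ.

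Few of the called loci have a described product. A protein description was given for 224 (23.7%), against 35.8% of the tested loci. Assembled loci without a reference gene name made up 272 (28.7%) of the called and 6.63% of the tested loci. The locus with the highest level on the BN607 side, TraesCS2B02G490700, 2B, 688430630 to 688434145, is described only as a predicted protein, and was at 5.82, 13.4 and 10.8 FPKM in C72_BN207 and 396, 166 and 279 FPKM in C72_BN607 (4.59 ± 0.51 SE, adjusted p = 0.00399). It was named after its values were seen, as was its counterpart on the BN207 side, TraesCS3D02G148900, 3D, 114022433 to 114022912, also a predicted protein, at 682, 305 and 172 FPKM in C72_BN207 and 26.7, 58.1 and 35.6 FPKM in C72_BN607 (-3.70 ± 0.73 SE, adjusted p = 0.0472). C72_ZM22 was at 79.7 to 182 FPKM at the first and at 2.39 to 5.39 FPKM at the second.

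Called loci were unevenly spread over the genome. On the B subgenome 505 of 15529 tested loci were called (3.25%), on the A subgenome 293 of 15341 (1.91%) and on the D subgenome 99 of 15382 (0.64%). Chromosomes 3B (4.42%), 1B (4.28%), 6B (4.06%) and 7B (3.72%) had the highest shares, and chromosome 1D the lowest with 6 of 2033 (0.30%). Unplaced sequence had 50 of 788 (6.35%). Loci higher in BN607 and loci higher in BN207 were found on each chromosome. Of 895 placed called loci that have a next tested locus on their chromosome, that neighbour was also called at 129 (14.4%), in the same direction at 104 of them, against 2.01% of all tested loci. At 18 of the 129 the neighbours overlapped or lay within 1 kb.

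**Figure D4:**
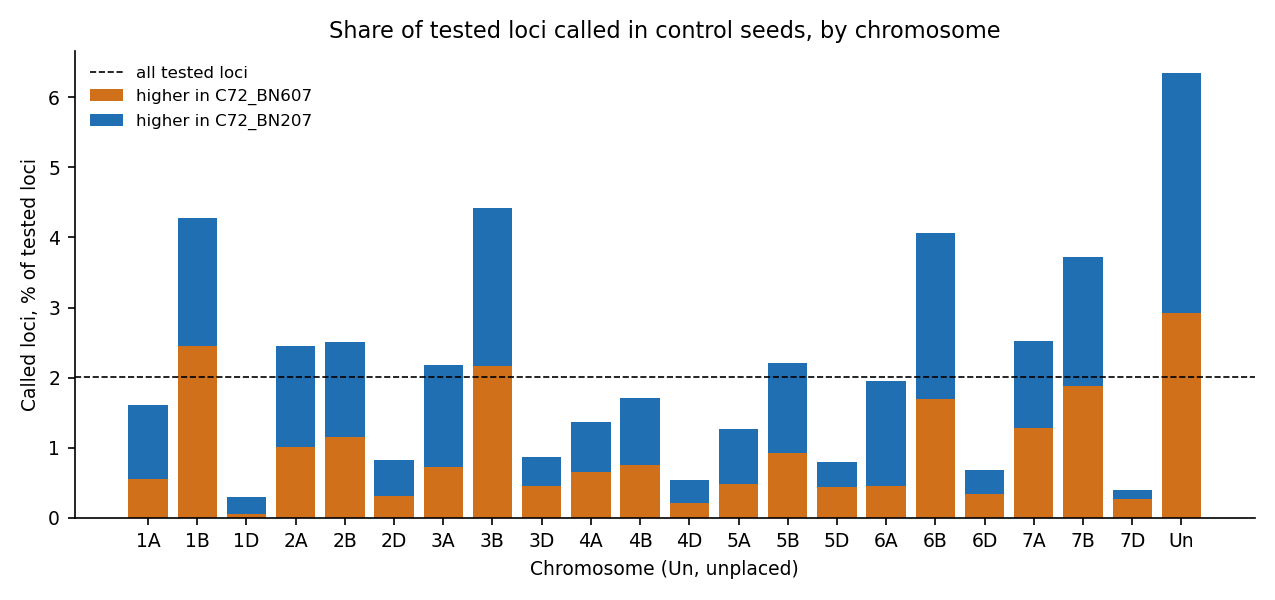
Called loci as a percentage of the tested loci of each chromosome, split by direction (orange, higher in C72_BN607; blue, higher in C72_BN207); the dashed line is the share over all tested loci, 2.01%. The B chromosomes 1B, 3B, 6B and 7B lie above 3.7%, and every D chromosome lies below 0.9%.

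Within chromosomes, calls were gathered in windows. Of 1295 windows of 10 Mb with at least 10 tested loci, 833 held no called locus, and 24 had 15% or more of their loci called and held 158 of the calls. The highest share was on 7B between 740 and 750 Mb, with 9 of 20 loci called (45%), 3 higher in BN607 and 6 in BN207. In that window, coatomer subunit beta'-2 of the COPI vesicle coat (TraesCS7B02G496400, 7B, 747270975 to 747277321) was at 0, 0.013 and 0 FPKM in C72_BN207 and 5.35, 7.24 and 6.46 FPKM in C72_BN607. The sterol and brassinosteroid enzyme DIMINUTO (TraesCS7B02G484200) was at 4.57, 13.3 and 19.4 FPKM in C72_BN207 and 2.504, 3.41 and 2.76 FPKM in C72_BN607 (-2.31 ± 0.44 SE, adjusted p = 0.0388) and was called in 1 of the 6 fits that left out a replicate. A regulator of ribonuclease-like protein 2 (TraesCS7B02G483200) was at 22.5, 35.1 and 30.1 FPKM in C72_BN207 and 10.4, 5.87 and 6.85 FPKM in C72_BN607 and was called in none of them, whereas the coatomer subunit was called in all 6.

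On 7B between 250 and 260 Mb, 5 of 14 loci were called, all higher in BN607. RNA-binding protein 42-like (TraesCS7B02G177300, 7B, 253637144 to 253649863) was at 0.074, 0 and 0.084 FPKM in C72_BN207 and 12.6, 10.6 and 16.8 FPKM in C72_BN607 (7.64 ± 0.96 SE, adjusted p = 0.00678), and a chloroplast ribonuclease E/G-like protein (TraesCS7B02G177700) at 0.067, 0.17 and 0.055 FPKM in C72_BN207 and 1.12, 1.100 and 1.62 FPKM in C72_BN607. On 7B between 650 and 660 Mb, 7 of 23 were called, among them the E3 ubiquitin ligase LOG2 (TraesCS7B02G390000), at 0.98, 1.06 and 0.99 FPKM in C72_BN207 and 6.99, 8.698 and 8.42 FPKM in C72_BN607 (2.68 ± 0.25 SE, adjusted p = 0.00197). The other 6 there were assembled loci without a name or description. RNA-binding protein 42-like and LOG2 were called in all 6 fits that left out a replicate, and the ribonuclease E/G-like protein in 1.

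In the first 10 Mb of 3B, 19 of 70 tested loci were called, 10 higher in BN607 and 9 in BN207. 1-deoxy-D-xylulose 5-phosphate reductoisomerase, of plastid isoprenoid synthesis (TraesCS3B02G000700, 3B, 981835 to 986933), was at 0.32, 1.66 and 1.84 FPKM in C72_BN207 and 11.4, 14.5 and 12.99 FPKM in C72_BN607, and a sodium/hydrogen exchanger (TraesCS3B02G021600, 3B, 9165564 to 9177438) at 0.43, 0.60 and 0.72 FPKM in C72_BN207 and 6.096, 7.27 and 5.805 FPKM in C72_BN607 (3.18 ± 0.25 SE, adjusted p = 0.00107). EXECUTER 2, of singlet oxygen signalling in the chloroplast (TraesCS3B02G000200, 3B, 218045 to 222328), was lower in BN607, at 21.4, 16.9 and 17.2 FPKM in C72_BN207 and 7.96, 6.99 and 6.18 FPKM in C72_BN607. The exchanger was called in all 6 fits that left out a replicate, EXECUTER 2 in 2 and the reductoisomerase in 1. The aldolase and the glutathione S-transferase described above follow on the same arm, just beyond that window. On 6B between 40 and 50 Mb, 7 of 27 were called, with RNA polymerase II subunit rpb4 (TraesCS6B02G062600, 6B, 41764639 to 41781048) at 3.88, 4.47 and 4.88 FPKM in C72_BN207 and 20.7, 19.2 and 18.9 FPKM in C72_BN607 (1.87 ± 0.23 SE, adjusted p = 0.00626), and a locus of structural maintenance of chromosomes protein 6A, of DNA repair (TraesCS6B02G071100), higher in BN207 at 3.001, 0.92 and 0.71 FPKM in C72_BN207 and 0, 0 and 0.0096 FPKM in C72_BN607. The subunit rpb4 was called in all 6 fits that left out a replicate and the 6A-like protein in 4.

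The waterlogged libraries of the same varieties, which share no library with the control comparison, were used as separate samples. The library labelled W72_BN207 replicate 1 went against its label. In it, 268 of the 285 loci on in C72_BN607 were at 1 FPKM or more and 263 of the 268 loci on in C72_BN207 were under 0.5 FPKM, whereas in W72_BN207 replicates 2 and 3 276 of the 285 were under 0.5 FPKM and 250 and 254 of the 268 were at 1 FPKM or more. With the library labelled W72_BN207 replicate 1, edgeR called 0 loci between W72_BN607 and W72_BN207, with 1627 at an unadjusted p under 0.05, and DESeq2 called 351. Without it edgeR called 396 (0.842% of 47040) and DESeq2 2212 (4.76% of those it tested).

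W72_BN207 replicate 1 was set aside for its values at the loci called in control seeds, so the agreement of the other 8 libraries at the same loci is not independent of that choice. In these 8 libraries, 942 of the 947 control calls had the same sign, against 72.6% of all tested loci, and 334 were called again (35.3% of the control calls and 84.3% of the waterlogged calls). None was called with the opposite sign. With all 9 libraries, 415 of the 428 loci higher in BN607 and 516 of the 519 higher in BN207 had the same sign. The median log2 fold change was 6.35 against 7.32 in control seeds at the loci higher in BN607, and -4.63 against -5.14 at those higher in BN207. The SKP1 locus TraesCS6A02G000300 had a log2 fold change of -2.77 in waterlogged and -2.92 in control seeds, and the aldolase TraesCS3B02G025200 3.66 and 4.16, both called in both. All 18 called resistance loci kept their sign, and 3 of them were called again. Among the 5 exceptions, prohibitin-1 (TraesCS6D02G185000) was at 0.039, 0.21 and 0.12 FPKM in C72_BN207 and 3.203, 1.96 and 3.001 FPKM in C72_BN607, but at 2.33 and 1.77 FPKM in W72_BN207 replicates 2 and 3 and at 1.29, 0.14 and 2.88 FPKM in W72_BN607.

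**Figure D5:**
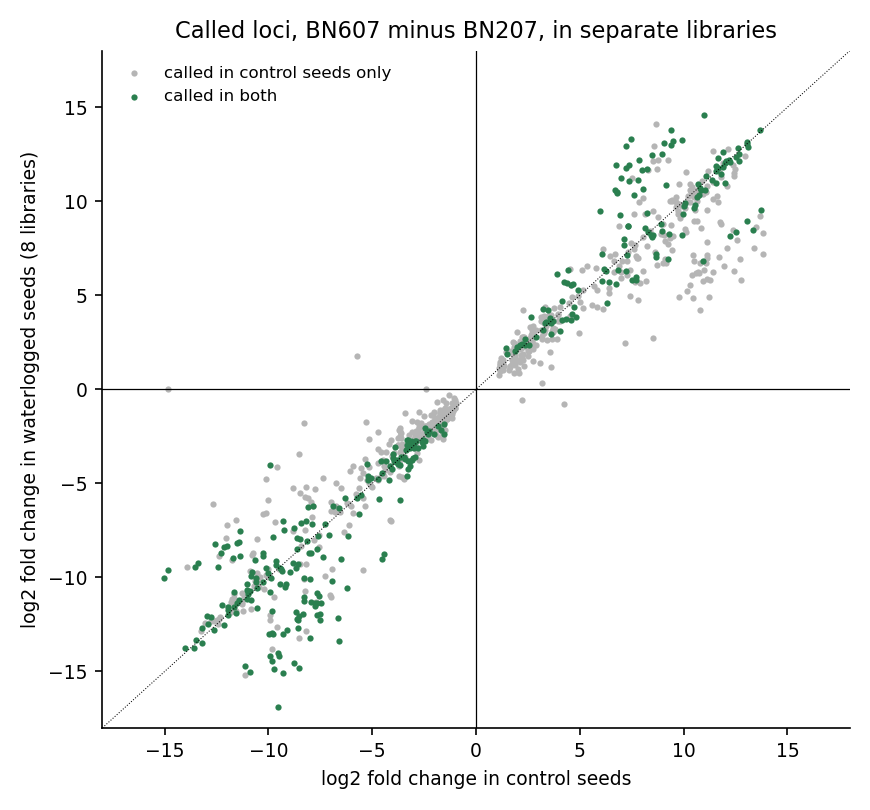
Log2 fold change of BN607 minus BN207 at the 947 loci called in control seeds, in control seeds (horizontal) and in the 8 waterlogged libraries without W72_BN207 replicate 1 (vertical); the dotted line marks equal values. Points lie in the 2 quadrants of the same sign except for 5 loci, and the 334 loci called in both are green.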

How the data were processed

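Poly(A) RNA of wheat seeds was sequenced in 18 libraries. The submitters' processing notes name HISAT and StringTie without versions. The study's methods give adapter trimming, assembly of each sample and merging of the assemblies. The authors deposited 1 table of 94141 loci with FPKM and an estimated count for each library, which is an expected count derived from coverage and not a number of reads. Gene names, descriptions and coordinates (IWGSC RefSeq v1.0) were taken from that table, and 0 columns belonged to other samples.

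Loci with at least 1 FPKM in at least 3 of the 9 control libraries were kept (47040). The counts were scaled by TMM and tested with the quasi-likelihood test of edgeR 4.0.16 in R 4.3.3 over the 9 control libraries, with C72_ZM22 only in the spread. Calls are at a Benjamini-Hochberg adjusted p under 0.05 over all tested loci, and fold changes are BN607 minus BN207. The SE given with them is an approximate value worked back from the test. It is the absolute log2 fold change divided by the square root of the F statistic. DESeq2 1.42.0 on the counts and limma 3.58.1 on log2(FPKM + 1) were alternatives, beside other filters, scalings, libraries and a replicate block. The scripts were tested on simulated data. A total of 36 gene lists were matched on the descriptions.

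Named loci were, per direction, the 12 called and described loci with non-overlapping ranges and the highest mean FPKM in the higher variety, up to 3 called members of each list per direction and its most abundant member, and up to 3 called and described loci in each of the 5 windows of 10 Mb with the largest share called. The comparison, the lists and these rules were chosen with earlier results of these data known. The homoeologous groups, the neighbouring loci, the interaction and 5 of the genes named by the study were added after the data were seen.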

Additional observations from a re-analysis of the deposited data

Results flagged for a closer look

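An interaction test between control and waterlogged seeds called TraesCS6A02G397600, a locus without a description (6A, 608977681 to 608980242). It was at 4.36, 4.94 and 3.97 FPKM in C72_BN207 and at 0.064, 0.047 and 0.049 FPKM in C72_BN607. In waterlogged seeds it was at 0, 4.96 and 5.79 FPKM in W72_BN207 and listed at 0 in the 3 W72_BN607 libraries. The log2 difference between the 2 variety contrasts was 6.88, with an adjusted p of 0.01 in edgeR's interaction test on 17 libraries, without W72_BN207 replicate 1. The direction was the same in both conditions. With W72_BN607 at 0 counts the fitted value depends on the prior count and is no measure of size, and the C72_BN607 values were themselves near 0, so these values do not show that the difference between the varieties changed. It was the only locus called by this test, with 491 at an unadjusted p under 0.05, and with all 18 libraries 0 were called, with 618 at an unadjusted p under 0.05.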

How the results depend on the processing

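The number of loci called between the varieties in control seeds (947, 428 higher in BN607 and 519 in BN207) was 451 (209 and 242) with a filter of 5 FPKM, 2044 (912 and 1132) with DESeq2, and 3 (0 and 3) with all 18 libraries. With the estimated counts divided by 4, edgeR called 1063 loci (501 and 562). With limma on FPKM, the loci higher in BN607 were 760 with a pseudocount of 1 and 697 with one of 0.1. Leaving out 1 replicate in turn gave 433 to 843 calls, 179 to 407 higher in BN607 and 254 to 436 higher in BN207, and 10 to 16 of the disease resistance list. In waterlogged seeds the count was 0 with all 9 libraries, 351 with DESeq2 (16 higher in BN607 and 335 in BN207), and 0 to 396 when 1 replicate was left out, 0 to 157 higher in BN607 and 0 to 239 in BN207. The 396 calls were those without W72_BN207 replicate 1. A fit with the replicate number as a block called 0 loci (0 in either direction), with 3335 at an unadjusted p under 0.05. Deviations of same-numbered libraries correlated at 0.09, 0.24 and -0.02, and those of libraries with unlike numbers at -0.25 to 0.18. With 3 libraries per group, these values cannot tell whether the numbers pair the libraries. The cause of these changes was not tested. The side with more calls turned from BN207 to BN607 with limma (760 against 495 and 697 against 532) and with edgeR on the 6 libraries alone (450 against 443). The median of the histone list, 0.14, was between -0.34 and 0.84 when 1 replicate was left out, 0.78 with the replicate block, and 0.88 and 1.10 with limma. None of the 947 called loci changed sign when 1 replicate was left out.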

Other observations

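An assembled locus without a name or description, MSTRG.37219, was at 64.5, 8.96 and 14.2 FPKM in C72_BN207 and at 86, 77.1 and 30.5 FPKM in C72_ZM22. It was listed at 0 in the 3 C72_BN607 libraries and in all 6 waterlogged libraries of BN207 and BN607.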
